A study of Saccharomyces cerevisiae with 6 samples.

Results

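The Hsp31 family of Saccharomyces cerevisiae comprises HSP31 (YDR533C), HSP32 (YPL280W), HSP33 (YOR391C) and SNO4 (YMR322C, also named HSP34). These 4 genes were selected by name, with earlier results of the same arrays known, and all 4 were found by systematic name among the 6362 genes measured. No filter on low values was applied, so every member is reported. Because the choice was made with these ratios in view, the ratios of the family are given as a description and without a p-value.

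Hsp31 proteins belong to the DJ-1 superfamily, whose human founding member, DJ-1, is linked to familial Parkinson's disease. Hsp31 of yeast converts methylglyoxal, a reactive by-product of glycolysis, to lactate without needing glutathione, and it also acts as a chaperone that holds misfolded proteins. The family is known for its part in the diauxic shift and in survival in stationary phase, and HSP31 is a target of the oxidative stress factor Yap1. HSP32, HSP33 and SNO4 are near-identical copies that lie close to chromosome ends, whereas HSP31 is a more distant paralog with its own sequence. Probe sequences were not used here, so RNA of any of the 3 copies may bind at each of their spots, and the values of HSP32, HSP33 and SNO4 are uncertain as measures of single genes.

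The study measured total RNA on 6 arrays with 2 colours in 3 haploid strains of mating type alpha, all carrying his3, leu2, lys2 and ura3 mutations. BY4742derg6 (erg6::kanMX4) lacks ERG6, a sterol methyltransferase of ergosterol synthesis, and BY4742dsnq2 (snq2::kanMX) lacks SNQ2, a drug exporter of the plasma membrane. Both were set against their parent, BY4742. On each array, Cy5-labelled cDNA of cells kept for 4 h at 28 °C in glucose-rich medium with 0.2 mM of compound 089 was set against Cy3-labelled cDNA of untreated cells of the same strain, with 2 biological replicates per strain. The labels give 089 a chemical name, that of an amide of a bicyclic ring holding oxygen and nitrogen.

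Each value is a log2 ratio, with treated cells over untreated ones, a base and a direction that are likely from the titles, the dyes and the range of values but are not stated. If the direction were the opposite, every sign below would turn. The dyes were not swapped, so a dye effect specific to a spot remains in each ratio. A ratio within a strain shows no level of the gene, and levels could not be compared between strains or between genes. ERG6, absent from both channels of the erg6 deletion arrays, had a ratio of -0.65 and -0.85 there, and SNQ2 had 0.22 and 0.03 on the snq2 deletion arrays, so neither locus is a check of the labels. With its gene absent, the ERG6 spot still passed the threshold used below (limma adjusted p = 0.00347), whereas the SNQ2 spot did not (0.308). A call alone therefore does not show that RNA of the gene changed. Across genes, the correlation of the replicate arrays was 0.713 in the erg6 deletion, 0.916 in the snq2 deletion and 0.901 in the parental strain. Of the genes past the threshold used below in the erg6 deletion strain, 42.4% were higher, and 52.5% were once the arrays had been centred on the median gene. Spots without a gene also carried ratios, and the 539 named empty had medians of 2.11 in the erg6 deletion, 0.549 in the snq2 deletion and 0.700 in the parental strain.

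The family split in 2 directions. SNO4, HSP32 and HSP33 had ratios above 0 on all 6 arrays, lowest in the erg6 deletion strain and highest in the parental strain. HSP31 ran the other way, with ratios near 0 in the erg6 deletion strain and about a 3-fold lower level in treated cells of the parental strain (ratio 0.331 on the linear scale). No member's arrays overlapped between any pair of strains, but this is common on these arrays. Of all genes, 80.0% did not overlap between the erg6 deletion and the parental strain, 76.6% between the snq2 deletion and the parental strain and 75.6% between the erg6 deletion and the snq2 deletion strain, so nothing about the family is read from it. In a limma fit across all genes, an adjusted p under 0.05 was reached by 54.7% of all genes in the erg6 deletion (23.2% higher and 31.5% lower), 51.5% in the snq2 deletion (25.3% higher and 26.2% lower) and 54.0% in the parental strain (27.3% higher and 26.7% lower). Calls from this fit are given for other genes only, against these shares. A call sets a ratio apart from 0 by its replicates and does not set it apart from background at the spot.

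SNO4, which shares its name with the SNO genes of pyridoxine synthesis, had the highest ratio of the family in the snq2 deletion and parental strains. It had 0.58 and 0.68 on the erg6 deletion arrays, 1.54 and 1.39 on the snq2 deletion arrays, and 3.57 and 3.36 on the parental arrays. The smallest gap between strains, that of the snq2 deletion and the erg6 deletion arrays, was 0.706, against a largest replicate difference of 0.214. The means were 0.63 ± 0.07 in the erg6 deletion, 1.46 ± 0.11 in the snq2 deletion and 3.47 ± 0.15 in the parental strain (SD, n = 2 each), or 1.55-fold, 2.76-fold and 11.1-fold. From the top of the 6362 genes, SNO4 stood 934th in the erg6 deletion, 94th in the snq2 deletion and 12th in the parental strain, places that would be counted from the bottom if the direction were the opposite.

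HSP32 had 0.91 and 0.22 on the erg6 deletion arrays, 1.40 and 1.08 on the snq2 deletion arrays, and 2.64 and 2.41 on the parental arrays. Its parental values lay above those of both deletion strains, whereas the gap of 0.165 between the erg6 deletion and snq2 deletion arrays was smaller than the difference of 0.691 between the erg6 deletion replicates. The means were 0.57 ± 0.49, 1.24 ± 0.23 and 2.53 ± 0.16 in the erg6 deletion, snq2 deletion and parental strain (SD, n = 2 each), or 1.48-fold, 2.36-fold and 5.77-fold. The erg6 deletion value of HSP32 was the least certain of the family, since it rested on replicates that differed more than those of any other member.

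HSP33 had 0.69 and 0.72 on the erg6 deletion arrays, 1.06 and 1.14 on the snq2 deletion arrays, and 2.65 and 2.30 on the parental arrays. The gap of 0.333 between the erg6 deletion and snq2 deletion arrays was close to the replicate difference of 0.349 in the parental strain. The means were 0.71 ± 0.02, 1.10 ± 0.06 and 2.47 ± 0.25 in the erg6 deletion, snq2 deletion and parental strain (SD, n = 2 each), or 1.63-fold, 2.14-fold and 5.55-fold. HSP33 stood 59th from the top in the parental strain, next to HSP32 at 52nd.

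HSP31, the member the family is named for, with the glyoxalase and chaperone activities, had 0.21 and 0.01 on the erg6 deletion arrays, -0.76 and -0.80 on the snq2 deletion arrays, and -1.61 and -1.58 on the parental arrays. Each gap between strains was at least 0.770, against a largest replicate difference of 0.208. The means were 0.11 ± 0.15 in the erg6 deletion, -0.78 ± 0.02 in the snq2 deletion and -1.59 ± 0.02 in the parental strain (SD, n = 2 each), or 1.08-fold, 0.582-fold and 0.331-fold on the linear scale. Of the 6362 genes, 62.9% had a lower ratio than HSP31 in the erg6 deletion, 14.4% in the snq2 deletion and 1.70% in the parental strain. In the opposite direction these would be the shares with a higher ratio. Centring the arrays on the median gene put the erg6 deletion mean of HSP31 at 0.22, still near 0 beside the other strains.

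**Figure D1:**
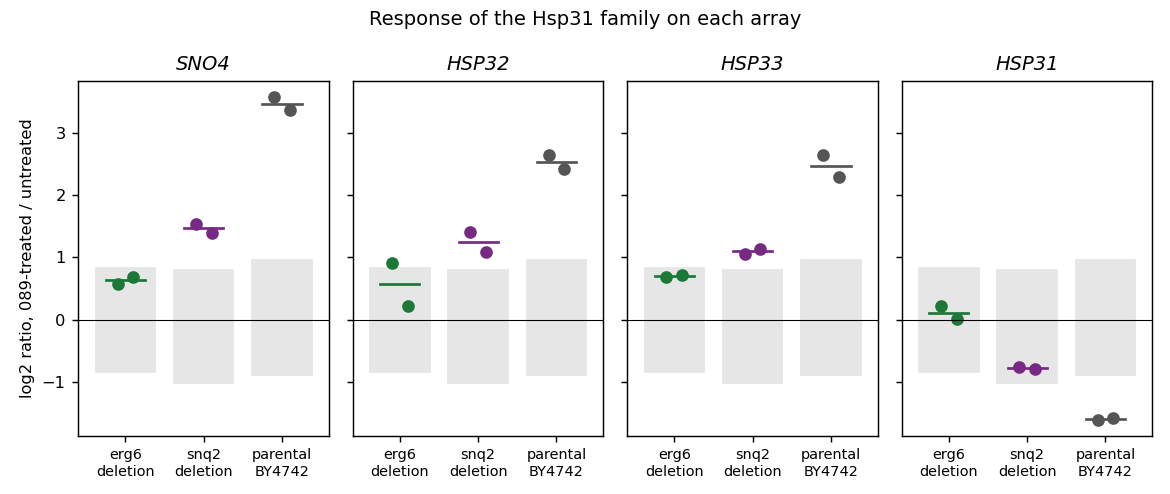
The log2 ratio of 089-treated over untreated cells (vertical axis) is plotted for each member on each array by strain, with points for the 2 arrays, a line for their mean and a grey box from the 10th to the 90th percentile of all genes (mean of the 2 arrays). SNO4, HSP32 and HSP33 are lowest in the erg6 deletion and highest in the parental strain, up to 3.57 for SNO4, while HSP31 is lowest in the parental strain, at -1.61.

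Among the 3 near-identical copies, the order depended on the strain. On the erg6 deletion arrays the span was 0.336 and 0.502 and the 3 overlapped, with HSP32 highest on one array and lowest on the other. On the snq2 deletion arrays the span was 0.485 and 0.308, SNO4 was the highest on both, and its lower value of 1.39 lay below the higher one of HSP32, 1.40. On both parental arrays SNO4 exceeded HSP32 and HSP33, which overlapped, and the span of the 3 was 0.932 and 1.06.

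The distance between HSP31 and its 3 paralogs followed the same order of strains. The mean of SNO4, HSP32 and HSP33 minus HSP31 was 0.512 and 0.535 on the erg6 deletion arrays, 2.10 and 2.00 on the snq2 deletion arrays, and 4.56 and 4.27 on the parental arrays. This difference averaged 0.524 ± 0.016 in the erg6 deletion, 2.05 ± 0.07 in the snq2 deletion and 4.42 ± 0.21 in the parental strain (SD, n = 2 each). As a ratio of ratios, it was 1.44-fold, 4.13-fold and 21.4-fold. On every array the lowest of the 3 copies lay above HSP31, by 0.215 to 4.25.

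Set against the parental response, the response of the erg6 deletion strain was higher by 1.70 for HSP31 and lower for the 3 copies, with differences of -2.84 for SNO4, -1.96 for HSP32 and -1.76 for HSP33. The response of the snq2 deletion strain differed from the parental one in the same directions, by 0.81 for HSP31, -2.00 for SNO4, -1.29 for HSP32 and -1.37 for HSP33. Both differences share the parental arrays, so they are not independent of each other. Standard errors of these differences in the fit were 0.125 for HSP31, 0.138 for SNO4, 0.264 for HSP32 and 0.153 for HSP33. Past the threshold lay 56.8% of all genes for the erg6 deletion minus the parental strain (25.4% higher and 31.4% lower) and 39.2% for the snq2 deletion minus the parental strain (16.4% higher and 22.8% lower). From the bottom of the 6362 genes, SNO4 stood 125th in the erg6 deletion minus parental difference and 103rd in the snq2 deletion minus parental difference, which would be counted from the top in the opposite direction.

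Between the deletion strains, the erg6 deletion response minus the snq2 deletion response was 0.89 ± 0.13 for HSP31, -0.84 ± 0.14 for SNO4, -0.67 ± 0.26 for HSP32 and -0.39 ± 0.15 for HSP33 (SE of the fit, n = 2 arrays per strain). For HSP32 the gap between the arrays was smaller than the difference between the erg6 deletion replicates. Of all genes, 49.6% passed in this comparison (23.0% higher and 26.5% lower).

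The family was also set against the control spots. In the erg6 deletion strain, most of the 539 empty spots, whose median was 2.11, lay above the family, 467 above SNO4, 469 above HSP32 and 459 above HSP33. In the snq2 deletion strain 58 empty spots lay above SNO4, 93 above HSP32 and 126 above HSP33. In the parental strain SNO4 exceeded all but 2, HSP32 all but 15 and HSP33 all but 17. Of the 539 empty spots, 470 were highest in the erg6 deletion, 17 in the snq2 deletion and 52 in the parental strain, and 27 had the order of strains of the 3 copies. Of the spots that exceeded the copies in the parental strain, both above SNO4, 11 of the 15 above HSP32 and 11 of the 17 above HSP33 were highest in the parental strain. Those spots were picked for a high parental ratio, which favours that outcome, so nothing is read from these counts. HSP31 lay below 491 of the empty spots in the erg6 deletion, 510 in the snq2 deletion and 537 in the parental strain. The 144 spots named Blank were lower, with medians of -0.271 in the erg6 deletion, -0.217 in the snq2 deletion and -0.293 in the parental strain. SNO4 lay above 73.6%, 96.5% and 100.0% of them, HSP32 above 72.9%, 93.8% and 100.0%, and HSP33 above 74.3%, 89.6% and 99.3%, in the same order of strains. HSP31 lay above 64.6%, 28.5% and 4.17% of them. How much of each ratio comes from background at the spot was not tested, since spot intensities were not analysed here.

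**Figure D2:**
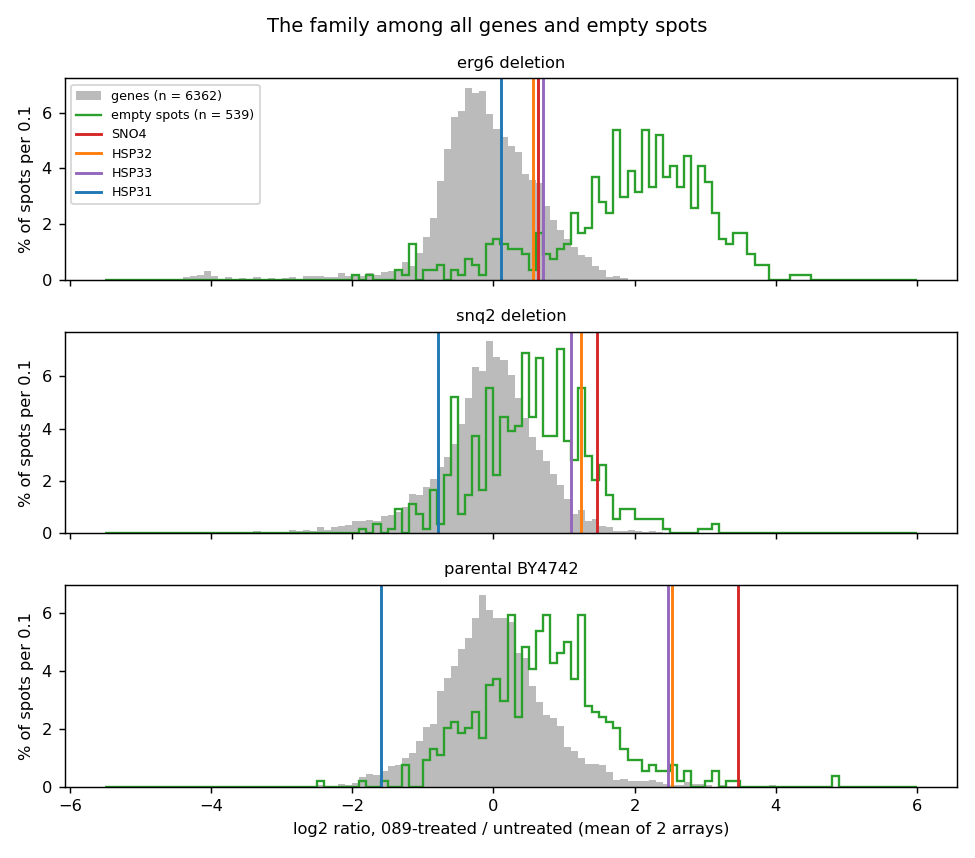
Histograms give the percentage of all genes (grey) and of empty spots (green line) per 0.1 of log2 ratio (mean of 2 arrays) in each strain, with a vertical line for each family member. In the erg6 deletion strain the 4 lines lie between 0.11 and 0.71, below most empty spots, whereas in the parental strain SNO4, at 3.47, lies near the right end of both distributions and HSP31, at -1.59, near the left end of the genes.

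Likeness of response was measured as the root mean square difference of the log2 ratio over the 6 arrays, among genes with a RefSeq match. HSP32 and HSP33 were each other's closest gene, at 0.270, first of 5825. SNO4 was at 0.605 from HSP32 and 0.620 from HSP33, which ranked 8th and 10th among the genes closest to it. The paralogs were among the genes least like HSP31, with HSP33 at 2.61, HSP32 at 2.67 and SNO4 at 3.21, or 5777th, 5785th and 5815th of 5825. Across the 6 arrays HSP31 correlated with SNO4 at r = -0.963 and SNO4 with HSP33 at r = 0.991, a description over 3 strains whose replicates share a strain.

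Outside the family, the genes closest to HSP31 were ESBP6, a putative monocarboxylate transporter, at 0.0632, YMR046C at 0.135 and THI21, a kinase of thiamine synthesis, at 0.163. ESBP6 averaged 0.11 in the erg6 deletion, -0.76 in the snq2 deletion and -1.54 in the parental strain, against 0.11, -0.78 and -1.59 for HSP31. The closest to HSP32 were BUD3, a bud site selection gene, at 0.387, TDH1, a glyceraldehyde-3-phosphate dehydrogenase gene, at 0.415, and the seripauperin gene PAU22, at 0.434. PAU22 was also the closest to HSP33, at 0.270, ahead of the uncharacterised frame YFL067W at 0.322 and the mitochondrial intron frame AI3 at 0.333. The closest to SNO4 were YKL091C at 0.343, the mitochondrial cytochrome oxidase gene COX1 at 0.386 and its intron frame AI5_ALPHA at 0.397. COX1 averaged 0.65 in the erg6 deletion, 1.59 in the snq2 deletion and 4.01 in the parental strain. That COX1 and SNO4, or ESBP6 and HSP31, share an order of strains follows largely from picking genes by likeness on these same arrays. These neighbours in pattern depended on scaling. Under quantile normalisation 3 of the 3 closest genes were shared for HSP31, 2 for HSP32, 1 for HSP33 and 2 for SNO4, and with arrays centred and scaled 2, 2, 2 and 3 were.

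In the RefSeq gene order, SNO4 has 2 genes between it and the chromosome end, HSP32 has 3, HSP33 has 4 and HSP31 has 8. SNO4, HSP32 and HSP33 each lie beside an ERR gene, one of the near-identical enolase-related copies, with a PAU gene beyond it, and HSP32 and HSP33 also lie beside a FEX gene for a fluoride exporter. Of the 12 nearest genes of the 3 copies, taken as 2 per side, 3 rose and 6 fell in the erg6 deletion strain, where 23.2% of all genes rose and 31.5% fell (limma, adjusted p). In the snq2 deletion strain 4 rose and 2 fell, where 25.3% of all genes rose, and in the parental strain 9 rose, 1 fell and 2 did not pass, where 27.3% of all genes rose. Their medians were -0.25 in the erg6 deletion, 0.21 in the snq2 deletion and 0.75 in the parental strain, against -0.11, -0.03 and -0.02 over all genes. PAU22 and FEX1 rose most in the parental strain, by 2.36 ± 0.13 and 2.27 ± 0.11 (SE, n = 2, adjusted p = 0.000194 and 0.000138 in limma), against 2.53 for HSP32 near PAU22 and 2.47 for HSP33 beside FEX1.

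FEX2, PAU19 and PAU21 rose by 1.53 ± 0.12, 1.46 ± 0.11 and 1.42 ± 0.14 in the parental strain (SE, n = 2, limma adjusted p of at most 0.000781). The directly adjacent ERR1, ERR2 and ERR3 had 0.58, 0.52 and 0.30 there, against 2.47, 2.53 and 3.47 for HSP33, HSP32 and SNO4 beside them. PAU, ERR and FEX genes have close copies elsewhere, so their spots are uncertain in the same way. The counts of calls were sensitive to single arrays. Without erg6 deletion replicate 1 or 2, 1 gene rose and 2 or 3 fell in that strain. Without snq2 deletion replicate 2, 1 rose in the snq2 deletion strain, and without parental replicate 1 or 2, 7 rose in the parental strain. Centring the arrays, which raised the erg6 deletion values by about 0.11, left 2 of the 6 that fell there.

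The nearest genes of HSP31 did not follow it. KRE28 of the kinetochore and CAB1, the pantothenate kinase gene, on one side, and FIT1, a cell wall mannoprotein gene of iron uptake, and the glycerol symporter gene STL1 on the other, had -0.17, 0.18, -0.10 and 0.97 in the parental strain, where HSP31 had -1.59. STL1, which rose in that strain (± 0.08, SE, n = 2, limma adjusted p = 0.000461), was the 1 of these 4 genes to pass there.

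**Figure D3:**
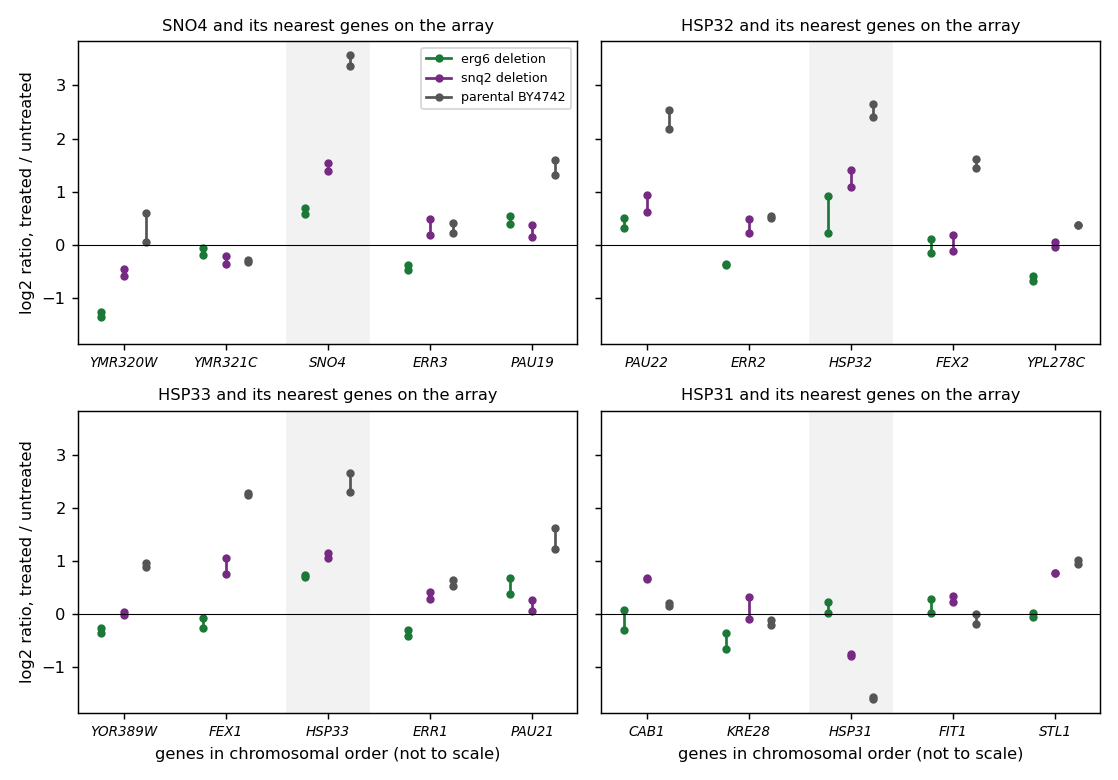
Log2 ratios on the 2 arrays of each strain (joined points) are drawn for each family member, shaded, and for the 2 nearest genes on the array on either side, in chromosomal order and not to scale. In the parental strain PAU22, FEX1 and FEX2 are high beside HSP32 and HSP33, the ERR genes are at 0.58 or less on average, and no gene next to HSP31 is as low as HSP31.

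Other enzymes that clear methylglyoxal were set beside HSP31. Of 9 genes for glyoxalases, aldo-keto reductases and D-lactate dehydrogenase, 7 rose and 0 fell in the erg6 deletion strain, 7 rose and 0 fell in the snq2 deletion strain, and 1 rose and 5 fell in the parental strain. Over all genes, 23.2% rose and 31.5% fell in the erg6 deletion, 25.3% rose and 26.2% fell in the snq2 deletion, and 27.3% rose and 26.7% fell in the parental strain. The list's medians were 0.94, 0.79 and -0.33, against -0.11, -0.03 and -0.02 over all genes. GLO1, the glutathione-dependent glyoxalase I, rose by 0.86 ± 0.13 in the erg6 deletion strain, had -0.29 ± 0.13 without passing in the snq2 deletion strain, and fell by 1.98 ± 0.13 in the parental strain (SE, n = 2, limma adjusted p = 0.00349, 0.106 and 0.000255), the same order of strains as HSP31. The means of GLO4, GCY1, YPR1, ARA1 and DLD1 had this order too, though their deletion strains did not differ past the threshold. Those of GLO2, GRE2 and GRE3 did not have it. GRE3, an aldose reductase, had -1.58 and -1.42 on the parental arrays and fell there (adjusted p = 0.00383). ARA1 and YPR1, aldo-keto reductases, both rose in the deletion strains. ARA1 had 1.35 ± 0.11 without ERG6 and 1.24 ± 0.11 without SNQ2, and YPR1 had 1.24 ± 0.15 and 1.22 ± 0.15, where HSP31 had 0.11 and -0.78. Without snq2 deletion replicate 1, 4 of these genes passed in the snq2 deletion strain, and without parental replicate 1 or 2, 2 or 3 passed in the parental strain.

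Genes of the diauxic shift and stationary phase, the growth stages in which the Hsp31 family is known to act, gave 14 of 20 that rose and 0 that fell in the erg6 deletion strain, 15 and 2 in the snq2 deletion strain, and 0 and 9 in the parental strain. That made 70.0%, 85.0% and 45.0% of the list past the threshold, against 54.7%, 51.5% and 54.0% of all genes, and the medians were 0.70, 0.95 and -0.27. SPG4, required for survival in stationary phase, rose in both deletion strains, to 1.42 ± 0.09 where ERG6 was deleted and 2.04 ± 0.09 where SNQ2 was deleted, and the nicotinamidase gene PNC1 fell by 1.85 ± 0.08 in the parental strain (SE, n = 2, limma adjusted p of at most 0.000416). HSP31 lay on the same side as the list's median in the parental strain and on the other side in the snq2 deletion strain. In the erg6 deletion strain HSP31 was near 0, so no side is read from it. SNO4, HSP32 and HSP33 lay opposite to the list's median in the parental strain.

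**Figure D4:**
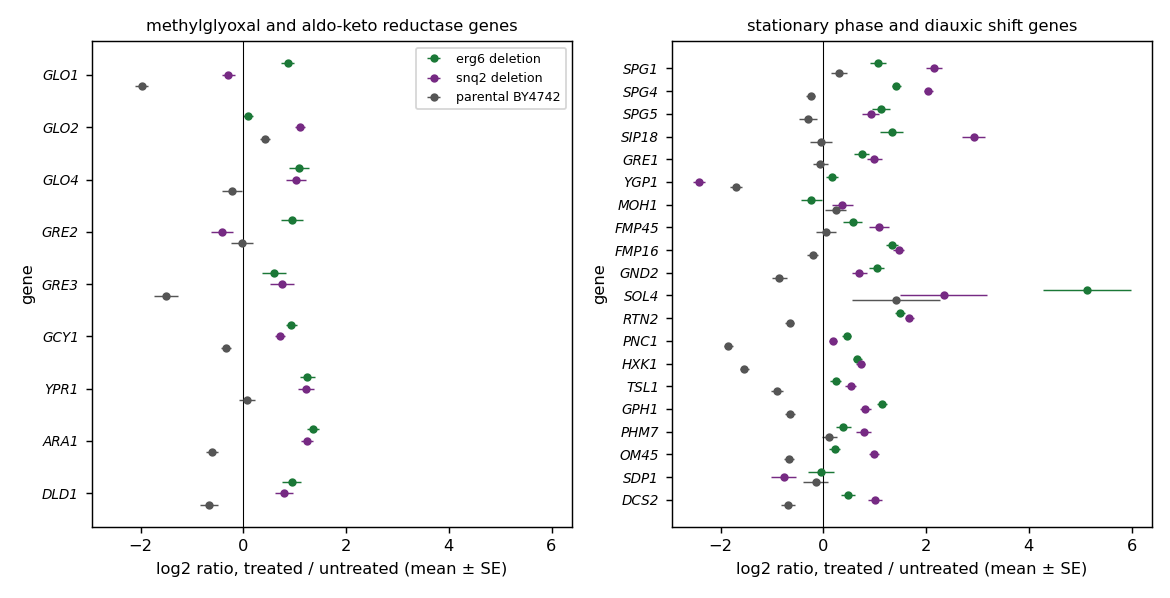
Each point is the mean log2 ratio of a gene in a strain, with its standard error from the fit (n = 2 arrays), for 9 genes around methylglyoxal (left) and 20 stationary phase genes (right). The parental point is the leftmost of the 3 for most genes, with GLO1 at -1.98 and PNC1 at -1.85.

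Most heat shock protein and co-chaperone genes fell in each strain, 14 of 20 in the erg6 deletion, 14 in the snq2 deletion and 16 in the parental strain, where 2, 3 and 3 rose. Of all genes, 31.5%, 26.2% and 26.7% fell in these strains. The list's medians were -0.75, -0.97 and -0.97, so HSP31 lay on the side of the medians in the snq2 deletion and parental strains while the 3 copies did not. Among the 3 genes that rose in the snq2 deletion were HSP12 and HSP26, at 2.23 ± 0.14 and 2.02 ± 0.09 (SE, n = 2), above the 3 copies there. The strongest calls were SSA4, an Hsp70, at -1.65 ± 0.10 in the erg6 deletion, SSE1, an Hsp110, at -2.16 ± 0.10 in the snq2 deletion and STI1, an Hsp90 co-chaperone, at -2.25 ± 0.10 in the parental strain. Of 21 Yap1 target and thiol redox genes, 10 rose and 6 fell in the erg6 deletion, 7 rose and 6 fell in the snq2 deletion, and 2 rose and 10 fell in the parental strain, with medians of 0.42, 0.14 and -0.28. Past the threshold were 76.2%, 61.9% and 57.1% of this list, against 54.7%, 51.5% and 54.0% of all genes. In the parental strain the share over both directions was close to the background, but the split was not, as 27.3% of all genes rose and 26.7% fell there. The mitochondrial superoxide dismutase gene SOD2 rose by 1.32 ± 0.08 in the erg6 deletion strain, the oxidoreductase gene OYE2 fell by 2.08 ± 0.10 in the snq2 deletion strain and the peroxiredoxin gene AHP1 fell by 1.77 ± 0.12 in the parental strain (SE, n = 2).

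The SNO and SNZ genes of pyridoxine synthesis had lower ratios than SNO4 in the parental strain, where the highest was SNO2 at 0.78. With PDX3, which encodes an oxidase of vitamin B6 synthesis, 3 of 7 rose and 2 fell in the erg6 deletion, 3 rose and 0 fell in the snq2 deletion, and 1 rose and 1 fell in the parental strain, with medians of 0.48, 0.45 and 0.10. The shares past the threshold were 71.4%, 42.9% and 28.6%, against 54.7%, 51.5% and 54.0% of all genes. PDX3 rose in both deletion strains, with 1.14 ± 0.09 without ERG6 and 0.72 ± 0.09 without SNQ2 (SE, n = 2). SNO1 fell by 0.53 ± 0.09 in the parental strain (limma adjusted p = 0.00547), but did not pass once parental replicate 2 was left out (0.0714, the top of a range that began at 0.00236). Of this list 3 genes passed without erg6 deletion replicate 2 in that strain, 1 without snq2 deletion replicate 2 and 1 without parental replicate 1 or 2.

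Of 15 regulators of stress and stationary phase, 3 rose and 3 fell in the erg6 deletion, 4 rose and 5 fell in the snq2 deletion, and 1 rose and 10 fell in the parental strain, with medians of -0.13, -0.17 and -0.75. Of the regulators 40.0%, 60.0% and 73.3% passed, against 54.7%, 51.5% and 54.0% of all genes. MSN4, a factor of the general stress response, fell in each strain, with -1.62, -2.44 and -1.69 (SE 0.0971, n = 2 each), while YAP1, the regulator of HSP31, had -0.14, -0.24 and -0.50. Of 11 stress granule and P-body genes, the RNA granules with which Hsp31 proteins associate, 6 rose and 1 fell in the erg6 deletion, 2 rose and 4 fell in the snq2 deletion, and 2 rose and 8 fell in the parental strain, with medians of 0.42, -0.04 and -0.78. Of the granule genes 63.6%, 54.5% and 90.9% passed, against 54.7%, 51.5% and 54.0% of all genes, close to the background in the snq2 deletion strain. LSM1 of the decay complex, the 1 granule gene that fell in the erg6 deletion, had -0.87 ± 0.10 there, against the 6 that rose. The poly(A) binding protein gene PAB1 fell by 1.75 ± 0.11 in the snq2 deletion and PUB1 by 1.57 ± 0.16 in the parental strain (SE, n = 2). The numbers of regulators past the threshold were 3 without erg6 deletion replicate 2, 5 without snq2 deletion replicate 2 and 7 without parental replicate 1 in those strains, and of granule genes 3 without either snq2 deletion array and 6 without parental replicate 1.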

How the data were processed

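The authors deposited 1 signed log2 ratio per feature and array for 7045 features. Per the labels, scanning was done with a GenePix 4000B. For background correction, normalization and spot filters the sources used here give no method. The log base and the direction are inferred, as stated above. Blank (144) and empty (539) spots served as controls outside the tests. Of the 6362 genes left, 5826 matched a locus tag of RefSeq assembly R64, used for names and gene order alone. A linear model with a mean for each strain was fitted to the 6 arrays together in limma 3.58.1 under R 4.3.3, with eBayes (residual df 3, prior df 2.45). Within a contrast, Benjamini-Hochberg adjustment covered all genes, and an adjusted p under 0.05 was the threshold. The fit was tested on simulated data. With 2 arrays per strain, the spread of a gene is taken as equal in the 3 strains.

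The members and the 7 gene lists were chosen with earlier results of these data known. Named genes were the family, ERG6 and SNQ2, up to 4 list members per strain with the smallest p, the 3 genes nearest in pattern to each member and the 2 nearest genes on either side. Sequence features were not analysed here. Alternatives were other scalings, the replicate block, left-out arrays, single-strain fits, robust eBayes, array weights and RefSeq-matched genes only. The number of arrays limits the precision.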

Additional observations from a re-analysis of the deposited data

Results flagged for a closer look

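HSP31 had ratios of 0.21 and 0.01 on the erg6 deletion arrays and ratios below 0 on all arrays of the other strains. The erg6 deletion values were near 0, so no rise of HSP31 there is claimed. The erg6 deletion response was 1.70 above the parental and 0.89 above the snq2 deletion response, differences given as a description and with no test reported, since the gene was chosen with these ratios known.

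For the other genes listed here, the responses of a deletion strain and the parental strain differed past an adjusted p of 0.05 in the limma contrast, which 56.8% of all genes passed for the erg6 deletion and 39.2% for the snq2 deletion. Among the genes beside HSP32, HSP33 and SNO4 every listed difference was negative, but differences that did not pass are not listed. Those of YMR321C (0.18 for the erg6 deletion and 0.01 for the snq2 deletion) and of ERR3 (0.03 for the snq2 deletion) were above 0. Those of ERR1, ERR2 and YPL278C for the snq2 deletion were below 0. The erg6 deletion minus parental differences were -2.44 for FEX1, -1.94 for PAU22, -1.64 for YMR320W, -1.56 for FEX2, -1.24 for YOR389W, -1.003 for YPL278C, -0.99 for PAU19, -0.94 for ERR1, -0.89 for ERR2, -0.89 for PAU21 and -0.73 for ERR3. The snq2 deletion minus parental differences were -1.57 for PAU22, -1.50 for FEX2, -1.36 for FEX1, -1.26 for PAU21, -1.20 for PAU19, -0.92 for YOR389W and -0.85 for YMR320W. Beside HSP31, STL1 differed by -0.99 in the erg6 deletion strain.

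Among the enzymes that clear methylglyoxal, erg6 deletion minus parental differences were 2.84 for GLO1, 2.10 for GRE3, 1.97 for ARA1, 1.27 for GCY1 and 1.17 for YPR1. Their snq2 deletion minus parental differences were 1.68, 2.26, 1.85, 1.05 and 1.15, and that of GLO2 was 0.68. Among stationary phase genes, erg6 deletion minus parental differences were 2.30 for PNC1, 2.20 for HXK1, 2.15 for RTN2, 1.87 for YGP1 and 1.66 for SPG4, and snq2 deletion minus parental differences were 2.04, 2.27, 2.33, -0.71 and 2.29.

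Among redox, chaperone and pyridoxine genes, erg6 deletion minus parental differences were 2.33 for AHP1, 2.24 for SOD2, 1.56 for STI1, 1.04 for PDX3 and -0.48 for SSA4. The snq2 deletion minus parental differences were 1.93 for SOD2, 0.86 for AHP1, 0.68 for SNO1, 0.62 for PDX3, -0.90 for SSA4, -1.32 for SSE1 and -1.36 for OYE2. Of regulators and granule genes, PUB1 differed by 2.11 and PAB1 by 1.15 in the erg6 deletion strain, while PAB1 differed by -0.97 and MSN4 by -0.75 in the snq2 deletion strain. SNQ2 differed by 0.51 where ERG6 was deleted and 0.47 where SNQ2 was deleted, and ERG6 by 0.82 in the snq2 deletion strain. The 0.47 is no response of SNQ2, since the gene is absent from both channels of the snq2 deletion arrays.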

How the results depend on the processing

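No value of the family changed sign under any alternative run. Quantile normalisation put HSP31 at -2.31, HSP32 at 1.90, HSP33 at 1.86 and SNO4 at 2.59 in the parental strain and SNO4 at 1.67 in the snq2 deletion strain. With arrays centred on the median gene, or centred and scaled, HSP31 had 0.2179 and 0.2181 in the erg6 deletion strain. Leaving out 1 array at a time gave HSP31 0.0064 to 0.21 and HSP32 0.22 to 0.91 in the erg6 deletion strain, and HSP33 2.30 to 2.65 in the parental strain.

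Genes past the threshold numbered 3478 in the erg6 deletion strain, and 1946 when its 2 arrays were fitted alone. With 1 array left out, the counts were 1672 to 3656 in the snq2 deletion and 1914 to 3829 in the parental strain, 1202 to 2889 for the snq2 deletion minus the parental strain and 1952 to 3095 for the erg6 deletion minus the snq2 deletion strain. The lowest counts came without snq2 deletion replicate 2 and without parental replicate 1. With arrays left out, methylglyoxal genes past the threshold numbered 4 to 9 in the snq2 deletion and 2 to 6 in the parental strain. SNO and SNZ genes numbered 3 to 5 in the erg6 deletion, 1 to 3 in the snq2 deletion and 1 to 3 in the parental strain, regulators 3 to 7, 5 to 10 and 7 to 12, and granule genes 3 to 6 in the snq2 deletion and 6 to 10 in the parental strain. Fitted to its own arrays, the erg6 deletion strain gave 1 SNO or SNZ gene, 9 stationary phase genes, 2 regulators and 4 granule genes, and the snq2 deletion strain 5 SNO or SNZ genes. Centred arrays, scaled or not, gave 3 SNO and SNZ genes in the erg6 deletion strain.

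Replicate numbers are shared between strains but mark no shared batch in the labels, and deviations of same-numbered arrays correlated at -0.00200, 0.0948 and -0.0423. With the replicate block, 3306 genes passed in the erg6 deletion, 3103 in the snq2 deletion and 3251 in the parental strain. With 2 arrays per strain, a ratio within the scatter of the empty spots cannot be told from background. Spot intensities were not analysed here. Without the most extreme spots at either end, the empty spots ran from -0.905 to 3.6 in the erg6 deletion strain. They ran from -1.1 to 2.1 in the snq2 deletion and from -0.843 to 2.56 in the parental strain. Every family mean in the deletion strains lay within these ranges, as did HSP32 (2.53) and HSP33 (2.47) in the parental strain. SNO4 (3.47) lay above the range there and HSP31 (-1.59) below it. The Blank spots, cut in the same way, ran from -1.77 to 2.1 in the parental strain. That range held HSP31 and lay below SNO4, HSP32 and HSP33. The limit from the empty spots applies to calls on other genes too. In the erg6 deletion strain GLO1 (0.86), SOD2 (1.32) and SPG4 (1.42) lay within the empty-spot range, while SSA4 (-1.65) lay below it. In the parental strain PAU22 (2.36) and FEX1 (2.27) lay within it, while GLO1 (-1.98) and STI1 (-2.25) lay below it.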
